A study of Arabidopsis thaliana with 12 samples.

Results

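The transcripts of 10 genes of cuticular wax and very-long-chain lipid synthesis were followed by RNA sequencing in whole Arabidopsis thaliana seedlings. They are KCS1, KCS6, KCR1, CER10, CER1, CER2, CER3, CER4, WSD1 and MAH1, taken by their 10 locus identifiers from the 31916 identifiers named in the deposited tables. The rule for membership used no expression value, although earlier results of these data were known when the genes were chosen. Seeds were cold-treated at 4 °C for 3 days, lit for 12 h and then left in darkness for 4 days. The series has 12 libraries, 3 in each of 4 groups. Wild type Columbia moved into white light for 6 h (Col_DL6h), det1-1 seedlings kept dark (det1-1_D) and pifq seedlings kept dark (pifq_D) are each set against wild type Columbia kept dark (Col_D). All groups were grown etiolated, and all were sampled as whole seedlings labelled 4 days old. DET1 is a repressor of light-type development, and det1-1 is known as a point allele. The label pifq is the usual name for a line lacking the phytochrome-interacting factors PIF1, PIF3, PIF4 and PIF5, which promote growth in the dark.

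The waterproof skin of a shoot is a cuticle, made of a cutin polyester filled and covered with wax. Wax begins in the epidermis, where the endoplasmic reticulum lengthens fatty acyl chains by rounds of condensation, reduction, dehydration and a last reduction. The finished very long chains then leave along 2 branches: one gives aldehydes and alkanes, with secondary alcohols and ketones made from alkanes, and the other gives primary alcohols and wax esters. In the elongase, KCS1 and KCS6 (also called CER6) condense, KCR1 makes the first reduction and CER10 makes the last. CER2 is an acyltransferase-like protein that lets KCS6 reach the longest chains. CER1 and CER3 act together in alkane formation, and MAH1 is the cytochrome P450 that oxidizes alkanes in the stem. CER4 reduces acyl chains to primary alcohols, and WSD1 joins those alcohols to acyl chains as wax esters.

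The sequences just upstream of 4 of these genes are shown because these 4 are the wax genes called at 2-fold in any comparison. CER1, WSD1 and KCS1 were at least 2-fold lower in pifq, and CER3 was at least 2-fold higher in light. Each run is the 300 bases before the annotated gene start, read 5′ to 3′ on the gene's own strand from RefSeq's TAIR10.1 assembly. The stretches are chr1:418116-418415 (plus strand) for CER1, chr5:14767126-14767425 (plus) for WSD1, chr1:59216-59515 (minus) for KCS1 and chr5:23419884-23420183 (plus) for CER3. No exon of another annotated gene lies in these 4 stretches. Capitals mark matches, on either strand, to ACGT and to TAAATGNA. ACGT is the core shared by sites of bZIP and many bHLH factors. TAAATGNA is a loose form of the L1-box of epidermal genes, which has C or T where TAAATGNA takes any base.
CER1: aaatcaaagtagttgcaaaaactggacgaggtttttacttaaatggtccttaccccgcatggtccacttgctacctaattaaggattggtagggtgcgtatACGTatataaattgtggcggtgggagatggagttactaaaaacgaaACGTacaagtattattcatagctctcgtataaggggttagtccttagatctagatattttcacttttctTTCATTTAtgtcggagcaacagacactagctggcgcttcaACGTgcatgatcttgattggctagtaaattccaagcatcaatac
WSD1: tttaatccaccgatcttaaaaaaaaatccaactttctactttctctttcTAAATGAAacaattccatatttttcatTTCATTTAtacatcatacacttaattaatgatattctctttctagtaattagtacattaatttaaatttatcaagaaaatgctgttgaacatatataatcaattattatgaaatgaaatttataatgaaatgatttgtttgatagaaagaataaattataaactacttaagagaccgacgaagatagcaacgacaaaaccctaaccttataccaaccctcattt
KCS1: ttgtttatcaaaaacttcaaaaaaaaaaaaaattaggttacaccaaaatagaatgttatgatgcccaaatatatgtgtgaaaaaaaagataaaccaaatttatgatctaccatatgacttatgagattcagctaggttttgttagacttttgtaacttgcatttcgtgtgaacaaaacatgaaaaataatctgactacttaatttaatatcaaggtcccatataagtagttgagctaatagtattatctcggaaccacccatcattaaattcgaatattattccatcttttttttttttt
CER3: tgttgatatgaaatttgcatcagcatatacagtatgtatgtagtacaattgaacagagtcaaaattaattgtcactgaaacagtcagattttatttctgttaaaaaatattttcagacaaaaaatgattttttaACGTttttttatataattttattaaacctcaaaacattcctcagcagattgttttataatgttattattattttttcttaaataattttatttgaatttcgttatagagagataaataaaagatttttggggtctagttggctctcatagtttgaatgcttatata
CER1 held 3 ACGT cores and 1 TAAATGNA match, which starts 84 bases before the gene start. WSD1 held 2 TAAATGNA matches, starting 251 and 224 bases before it, and no ACGT core. These TAAATGNA matches all have A at the open base, so none is the L1-box itself. CER3 held 1 ACGT core, and KCS1 held neither motif. The other motifs searched on both strands were the G-box CACGTG, which contains the ACGT core, and the PBE-box CACATG, both known as sites of PIF proteins. Neither occurs in the 4 windows shown. Over all 10 genes, 0 had a G-box, 2 a PBE-box (CER2 and MAH1), 7 an ACGT core and 2 a TAAATGNA match. Among 27443 protein-coding genes, the same window held a G-box in 7.09%, a PBE-box in 13.1%, an ACGT core in 49.0% and TAAATGNA in 11.8%. A match is a run of letters and was not tested as a binding site.

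Every level below is the authors' FPKM, that is, fragments scaled to the transcript's length and to the sequencing depth, given as 1 value for a whole group. With no value per library, no SD, n, p-value or depth can be attached to any of them, and no difference was tested against replicate error. Only the log2 ratio of a group to the dark wild type of its own table was used, with no pseudocount, and calls were made at 2-fold in either direction. A gene counts as analysed where it has 1 entry, was compared by the authors' program, reaches 1 FPKM in the higher group, is above 0 in both, and has dark wild type values within 1.5-fold across the tables. A gene with a dark value in a single table was kept, although the last condition could not be applied to it. By that rule 7 of the 10 genes were analysed in each comparison, and CER1, with an entry in the pifq table alone, is the wax gene kept without that check. In whole seedlings, fewer cells that make a transcript and less transcript per cell cannot be told apart. As a check of the labels, PIF3 was 0.802 FPKM in pifq against 30.2 FPKM in dark wild type, and PIF5 was 1.39 against 9.44 FPKM. PIF1 was 23.7 against 19.2 FPKM and PIF4 20.9 against 20.5 FPKM there. For PIF4 the other tables list dark wild type at 11.2 (light) and 10.4 FPKM (det1-1), so it fails the 1.5-fold tolerance. DET1 was 16.7 FPKM in det1-1 against 15.1 FPKM in dark wild type, so the levels of PIF1, PIF4 and DET1 do not check the labels.

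Across the 10 genes the dark wild type spanned the whole range of expression. KCS6 stood highest, at 609 FPKM in the light table, in percentile 99.36 of the genes with 1 entry. KCS1 followed at 274 FPKM, then CER2 at 127, CER10 at 120.1, KCR1 at 115 and CER3 at 60.9 FPKM. WSD1 was far lower, at 7.01 FPKM (percentile 62.46). CER4 was 0.353 FPKM and MAH1 was listed at 0. CER1, at 162 FPKM in the pifq table, would lie between KCS1 and CER2. The 3 tables draw on the same dark libraries and were normalized apart. After scaling to the light table, the dark values of KCS1, KCS6, KCR1, CER10, CER2, CER3 and WSD1 differed by at most 1.006-fold between tables. How near neighbours such as CER10 and KCR1 are to each other relative to library spread cannot be said.

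**Figure D1:**
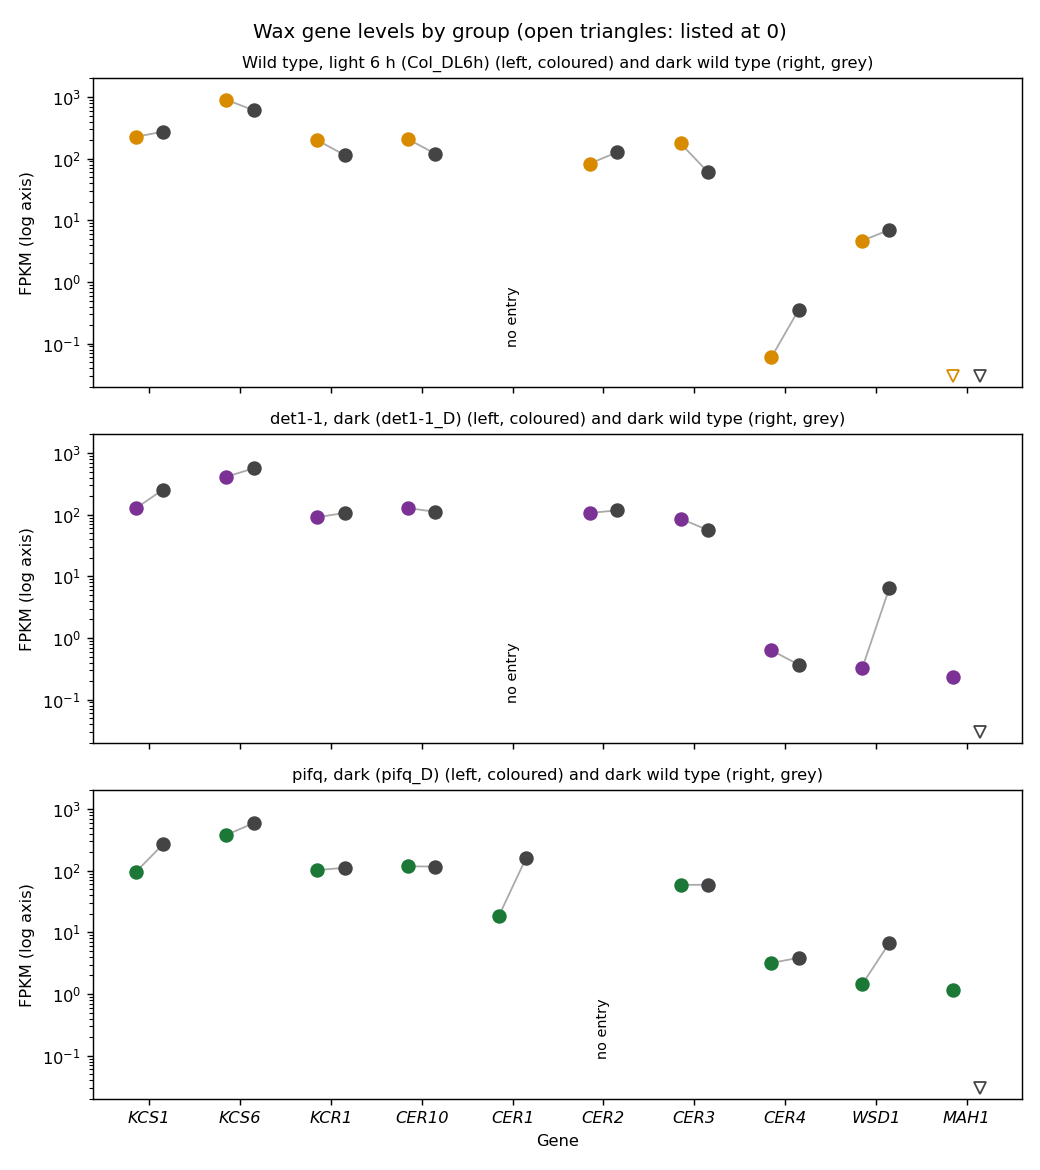
Levels of the 10 wax genes (horizontal axis) in FPKM on a log axis, with 1 panel per comparison; each pair joins the compared group (left, coloured) to the dark wild type of the same table (right, grey). KCS6 is the highest gene in every group, CER3 stands apart in light (177 against 60.9 FPKM), and CER1, KCS1 and WSD1 stand apart in pifq; open triangles are values listed at 0, and "no entry" marks a gene absent under its identifier.

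After 6 h of light CER3 was the only analysed wax gene past 2-fold, and KCS6, KCR1 and CER10 of the elongase had positive log2 folds below that. CER3 (AT5G57800, chr5:23420184-23424117, plus strand of TAIR10.1, 11 exons) was 177 FPKM in light and 60.9 FPKM in dark wild type, 2.91-fold higher. KCR1 (AT1G67730, chr1:25391338-25393889, plus, 3 exons) was 199 FPKM in light and 115 FPKM in the dark, a log2 fold of 0.79. CER10 (AT3G55360, chr3:20520930-20523098, minus, 4 exons) was 207 and 120.1 FPKM, a log2 fold of 0.78. The ketoacyl-CoA and enoyl-CoA reductases therefore kept nearly the same ratio in light, with KCR1 at 0.961 times CER10 in light and 0.957 times in dark wild type. KCR1 was 0.713 times CER10 in det1-1 and 0.868 times in pifq, beside 0.956 and 0.955 times in their dark wild type. KCS6 (AT1G68530, chr1:25712414-25715024, minus, 2 exons) was 901 FPKM in light and 609 FPKM in the dark, a log2 fold of 0.57. KCS1 (AT1G01120, chr1:57164-59215, minus, 1 exon), the other condensing enzyme, was 226 and 274 FPKM, a log2 fold of -0.28. KCS6 was thus 3.99 times KCS1 in light and 2.22 times in dark wild type.

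The remaining analysed genes were lower in light by less than 2-fold. CER2 (AT4G24510, chr4:12660687-12662656, plus, 2 exons) was 83.1 FPKM in light and 127 FPKM in the dark, a log2 fold of -0.61. WSD1 (AT5G37300, chr5:14767426-14770396, plus, 6 exons), the ester-forming enzyme, was 4.66 and 7.01 FPKM, a log2 fold of -0.59. CER4 (AT4G33790, chr4:16204096-16207956, minus, 10 exons) was 0.0599 and 0.353 FPKM, below the minimum, and MAH1 (AT1G57750, chr1:21383812-21385709, minus, 1 exon) was listed at 0 in both. The median log2 fold of the 7 analysed genes was 0.57, against 0.02 for all 14810 genes analysed. At 2-fold, 1 of 7 was higher and 0 lower, while 12.4% of all genes were higher, 10.1% lower and 22.5% called either way. That share is near the background, so the count says nothing particular about these genes.

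In det1-1 kept dark, WSD1 had the lowest log2 fold of the analysed genes and CER3 the highest. WSD1 was 0.321 FPKM in det1-1 and 6.50 FPKM in dark wild type, 20.2-fold lower. The mutant level is close to 0. Adding 1 FPKM on both sides gave a log2 fold of -2.50 in place of -4.34. KCS1 was 126 FPKM in det1-1 and 254 FPKM in dark wild type, a log2 fold of -1.01 that only just reaches 2-fold. Adding 1 FPKM on both sides took it just below that (-0.9995). KCS6 was 412 and 565 FPKM, a log2 fold of -0.45, and stood at 3.26 times KCS1 in det1-1 and 2.22 times in dark wild type.

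The other elongation genes and the alkane gene CER3 stayed under 2-fold in det1-1. KCR1 was 91.2 FPKM in det1-1 and 106 FPKM in dark wild type (log2 fold -0.22). CER10 was 128 and 111 FPKM (0.20), and CER2 was 106 and 118 FPKM (-0.15). CER3 was 86.0 FPKM in det1-1 and 56.5 FPKM in dark wild type, a log2 fold of 0.61. CER4 was 0.632 and 0.370 FPKM, below the minimum, and MAH1 was 0.231 FPKM in det1-1 and listed at 0 in dark wild type. The median of the 7 analysed genes was -0.22, against -0.03 for all 14844 genes. Of the 7, 0 were higher and 2 lower at 2-fold, beside 17.3% of all genes higher, 9.71% lower and 27.0% called either way.

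In pifq kept dark, CER1, WSD1 and KCS1 were lower by more than 2-fold and none of the 7 analysed genes was higher by that much. CER1 (AT1G02205, chr1:418416-422579, plus strand, 8 exons in its longest transcript), the alkane-forming enzyme, was 18.5 FPKM in pifq and 162 FPKM in dark wild type, 8.72-fold lower. Its dark level could not be compared with the other tables. WSD1 was 1.43 FPKM in pifq and 6.77 FPKM in dark wild type, 4.74-fold lower. Adding 5 FPKM on both sides left WSD1 at a log2 fold of -0.87, under 2-fold. KCS1 was 94.7 and 266 FPKM, 2.81-fold lower. CER3, the partner of CER1 in alkane formation, was 59.0 FPKM in both groups, a log2 fold of -0.00.

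KCS6 was 381 FPKM in pifq and 591 FPKM in dark wild type, a log2 fold of -0.63. KCR1 was 102 and 111 FPKM (-0.12), and CER10 was 118 and 116 FPKM (0.02). KCS6 stood at 4.02 times KCS1 in pifq and 2.22 times in dark wild type. CER4 was 3.19 FPKM in pifq and 3.86 FPKM in dark wild type, but its dark value there was 11.3-fold that of the light table after scaling, so it was not analysed. MAH1 was 1.17 FPKM in pifq and listed at 0 in dark wild type, and no fold is given. The median of the 7 analysed genes was -0.63, against 0.01 for all 15014 genes. Of the 7, 3 were lower at 2-fold (42.9%) and 0 higher, beside 13.2% of all genes lower, 12.9% higher and 26.1% called either way. Without CER1 and all other genes whose dark level stands in 1 table, 2 of 6 were lower, with a median of -0.38, beside 13.5% of 13701 genes lower. This setting was chosen after seeing the data. With so few genes of a shared pathway and no replicate values, the difference from the background was not tested.

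**Figure D2:**
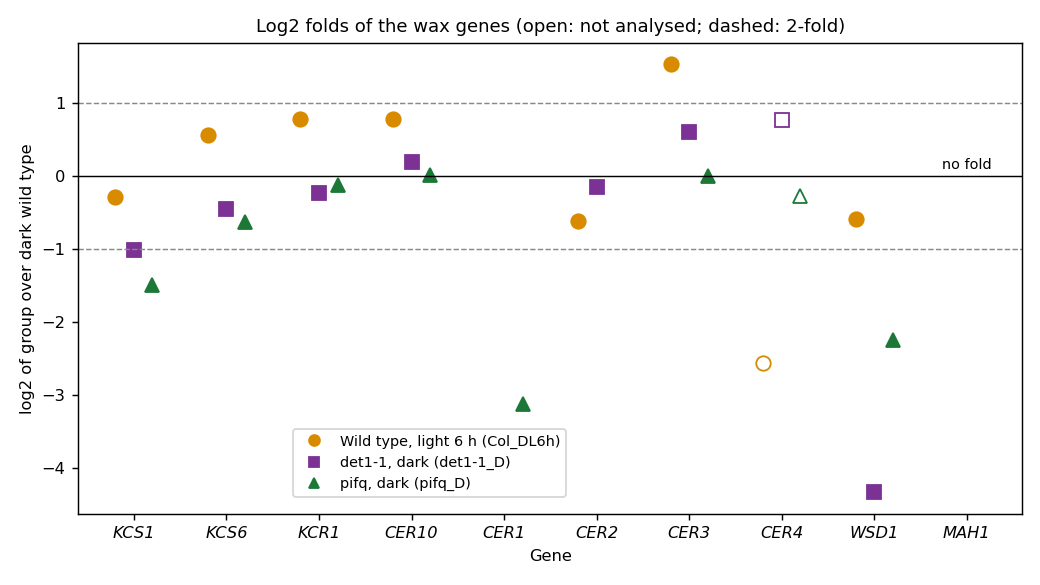
Log2 fold of each wax gene over the dark wild type of its own table (vertical axis), for light (circles), det1-1 (squares) and pifq (triangles); dashed lines mark 2-fold and open symbols are CER4 values that were not analysed. CER3 in light (1.54) is the only analysed gene above the upper line, while CER1 and WSD1 in pifq (-3.12 and -2.24) and WSD1 in det1-1 (-4.34) lie furthest below the lower one.

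Set side by side, the 3 comparisons share their dark libraries, so likeness between them is not independent. KCS1 had log2 folds of -0.28 in light, -1.01 in det1-1 and -1.49 in pifq. KCS6 had 0.57, -0.45 and -0.63, and KCR1 had 0.79, -0.22 and -0.12. CER10 had 0.78, 0.20 and 0.02. CER3 had 1.54, 0.61 and -0.00, and WSD1 had -0.59, -4.34 and -2.24. Both condensing enzymes and KCR1 thus had negative values in the mutants, while CER10, also of the elongase, had small positive ones. KCS6, KCR1 and CER10 had positive values in light. WSD1 and KCS1 were past 2-fold in both mutants, KCS1 only just so in det1-1. None of these differences between groups could be tested.

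CER1 and CER2 each lack an entry under their own identifier in some tables, and 1 neighbouring identifier of each had a dark level that differed widely between tables. These neighbours were looked at after the values had been seen. CER1 has an entry in the pifq table only. AT1G02190 (CER1-LIKE1), the next gene upstream (chr1:415074-418027), was 167 FPKM in dark wild type in the light table, 154 FPKM in the det1-1 table and 0.272 FPKM in the pifq table. Scaled to the light table, its first 2 dark values were both 167 FPKM, and that of CER1 in the pifq table was 166 FPKM. Under AT1G02190, light was 99.98 against 167 FPKM (log2 fold -0.74) and det1-1 was 15.5 against 154 FPKM (-3.32). CER2 has no entry in the pifq table, and AT4G24500, the next gene upstream (chr4:12658433-12660667), was 128 FPKM in dark wild type there, while it was 6.79 and 6.29 FPKM in the light and det1-1 tables. Its pifq level was 108 against 128 FPKM (-0.25). For CER4, whose dark level differed between tables, the neighbour AT4G33780 was 29.1 FPKM in the light table and has no entry in the pifq table. None of these values was assigned to a wax gene, and their source was not tested.

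**Figure D3:**
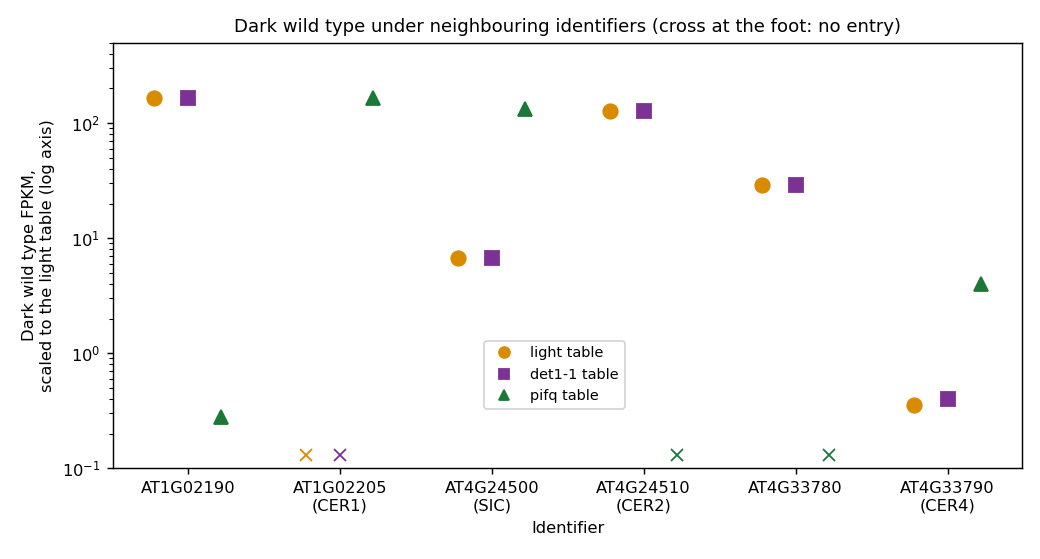
Dark wild type FPKM, scaled to the light table, on a log axis for CER1, CER2, CER4 and a neighbouring identifier of each, in the light (circles), det1-1 (squares) and pifq (triangles) tables; a cross at the foot means no entry. AT1G02190 at 167 FPKM in the light and det1-1 tables and CER1 at 166 FPKM in the pifq table lie at nearly the same height, as do CER2 at 127 FPKM and AT4G24500 at 132 FPKM in the pifq table.

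Sequence shared with other loci was low in all 10 genes. Between 0.00 and 0.27% of the 32-base stretches of the longest transcript occurred elsewhere in the genome, with MAH1 highest. CER10 overlaps AT3G55350 and CER2 overlaps the P450 reductase gene ATR1 (AT4G24520) and a long non-coding RNA. The handling of strand was not given in the sources used here, so reads from the overlaps cannot be assigned. The dark level of ATR1 was 147, 147 and 142 FPKM in the light, det1-1 and pifq tables after scaling. ATR1 was 71.1 FPKM in light against 147 FPKM in dark wild type, in the same direction as CER2.

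The wider pathway was read from 6 lists of 74 further genes, whose counts stand against 12.4% of all genes higher and 10.1% lower in light, 17.3% and 9.71% in det1-1, and 12.9% and 13.2% in pifq. Among 25 other genes of chain elongation, 14 were analysed in light and 3 were higher: PAS2, the dehydratase of the elongase (355 against 159 FPKM), ACC1, the cytosolic carboxylase that makes its malonyl-CoA (113 against 53.9 FPKM), and the condensing enzyme gene KCS8 (68.6 against 30.7 FPKM). The elongation list had a median log2 fold of 0.53 in light, 0.26 in det1-1 and 0.30 in pifq. KCS8 was 110 against 27.4 FPKM in det1-1. KCS2, a condensing enzyme known from root suberin, was 23.3 against 62.0 FPKM in det1-1 and 15.6 against 65.9 FPKM in pifq. Of 14 elongation genes analysed in det1-1, 3 were higher and 1 lower, beside 17.3% and 9.71% of all genes. Of 15 in pifq, 4 were higher and 2 lower, beside 12.9% and 13.2%. KCS8 and KCS19, condensing enzymes like KCS1 and KCS6, were among the 4 higher ones. KCS8 was 74.1 FPKM in pifq against 29.8 FPKM in dark wild type, and KCS19 was 214 against 69.9 FPKM. KCS12 was 3.93 FPKM in pifq against 19.0 FPKM in dark wild type. CER26, a relative of CER2, was 16.9 FPKM in pifq against 2.36 FPKM in dark wild type, and CER26-LIKE was 6.91 FPKM in det1-1 against 1.19 FPKM. KCS12 and CER26 have an entry in the pifq table alone, so their dark levels could not be compared between tables; without such genes, 3 elongation genes were higher and 1 lower of 13 in pifq.

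Other wax synthesis and export genes had 5, 5 and 6 analysed members of 12 in light, det1-1 and pifq. The fatty acyl reductase gene FAR1 was lower in all 3 comparisons, at 21.7 against 170 FPKM in light, 57.0 against 158 FPKM in det1-1 and 44.1 against 165 FPKM in pifq. FAR4, a reductase known from suberin like FAR1, was 45.8 against 4.55 FPKM in light. No other analysed gene of that list was called, beside 12.4% of all genes higher and 10.1% lower in light. CER1-LIKE1 and CER17 were left out because their dark levels differed between tables; with the tolerance dropped, 3 genes of the list were lower in det1-1 in place of 1, and 2 in pifq in place of 1. CER17, a desaturase, was 29.4 against 79.4 FPKM in det1-1 and 6.03 against 18.1 FPKM in pifq. The analysed genes of this list had median log2 folds of 0.43, -0.22 and -0.27 in light, det1-1 and pifq.

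Of 15 regulators, 11, 11 and 10 were analysed; 3, 3 and 1 were higher and 2, 0 and 2 lower, beside 12.4%, 17.3% and 12.9% of all genes higher and 10.1%, 9.71% and 13.2% lower. MYB96, an activator of wax genes, was 33.4 against 25.8 FPKM in light and 13.9 against 23.5 FPKM in det1-1. In pifq it was 10.7 against 24.9 FPKM, a log2 fold of -1.22. MYB16, a regulator of cuticle formation, was higher in all 3, at 17.4 against 5.16, 16.9 against 4.78 and 19.7 against 5.003 FPKM. MYB41, a regulator of suberin and cutin genes, was 15.7 against 1.97 FPKM in light and 5.84 against 1.82 FPKM in det1-1. In pifq it was lower, at 0.562 against 1.90 FPKM, a log2 fold of -1.76. Adding 1 FPKM on both sides left MYB41 at -0.89 in pifq, under 2-fold. In light WRI4, an activator of wax synthesis, was 13.1 against 40.8 FPKM.

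Cutin synthesis genes were split in light, with 4 of 8 analysed higher and 2 lower, beside 12.4% and 10.1% of all genes. CYP86A4, a fatty acid hydroxylase, was 5.51 against 18.5 FPKM in light, 2.74 against 16.9 FPKM in det1-1 and 5.88 against 19.8 FPKM in pifq. CYP86A8, a related hydroxylase, was 43.7 against 17.2 FPKM in light. DCR, an acyltransferase needed for cutin, was 7.04 against 2.66 FPKM in light and 5.25 against 2.47 FPKM in det1-1. Of 8 cutin genes analysed in det1-1, 1 was higher and 1 lower, beside 17.3% and 9.71% of all genes, and of 10 in pifq 1 was higher and 1 lower, beside 12.9% and 13.2%. Epidermal identity genes mark the cell layer that makes wax, and 5, 5 and 4 of the 6 listed were analysed in light, det1-1 and pifq, none of them at 0. Their summed level was 488 FPKM in light against 438 FPKM in dark wild type, 342 against 406 FPKM in det1-1 and 569 against 375 FPKM in pifq, most of it from PDF1; this sum was added after seeing the data. PDF1, an epidermal protein gene, was 388 against 337 FPKM in light, 212 against 313 FPKM in det1-1 and 484 against 326 FPKM in pifq. In det1-1, 3 of the 5 were above dark wild type: ATML1 at 42.9 against 23.2 FPKM, ANL2 at 32.6 against 20.6 FPKM and PDF2 at 51.7 against 46.0 FPKM. In light, 2 of 5 were. In pifq all 4 analysed epidermal genes were above dark wild type while CER1, KCS1 and WSD1 were below it. None of the 5 analysed in light and in det1-1 was past 2-fold there, and in pifq 2 of 4 were higher, ATML1 at 49.6 against 24.3 FPKM and ACR4 at 7.42 against 3.41 FPKM. The median log2 fold of that list was -0.00, 0.17 and 0.80. The part of epidermal cell number in the wax gene levels was not tested.

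**Figure D4:**
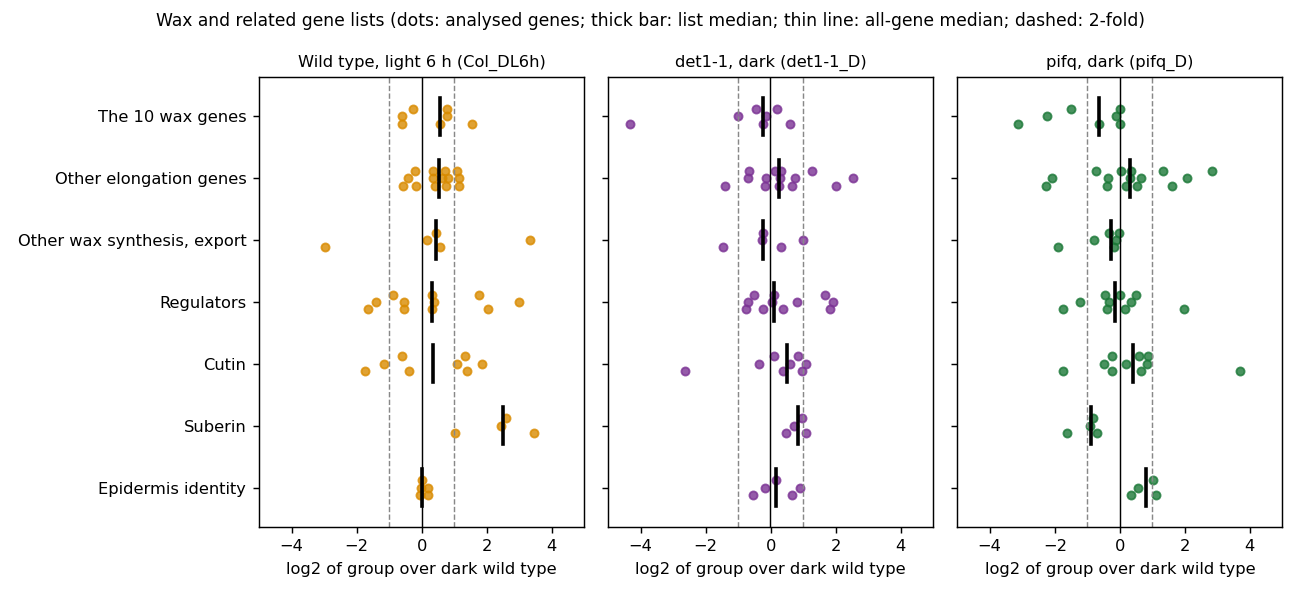
Log2 folds over dark wild type (horizontal axis) of the analysed genes in the 10-gene wax set and 6 related lists, for light, det1-1 and pifq; thick bars are list medians, thin lines the median of all genes, and dashed lines 2-fold. The wax set has medians of 0.57, -0.22 and -0.63, and the median of the 4-gene suberin list in light (2.51) stands furthest to the right.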

How the data were processed

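The 12 RNA-seq libraries (3 in each of 4 groups) are represented by 3 tables, each giving 1 value per gene and group. TopHat, Cufflinks and TAIR10 are named in the submitters' processing notes; versions, settings, strand and the way the 3 libraries were combined are not given in the sources used here. Values are FPKM as the authors deposited them, a unit inferred from the Cufflinks output format and the range of values. The authors' deposited log2 ratio was used only to see which genes had been compared, and differed from the ratio of the FPKM values by at most 0.0074.

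Log2 folds were computed with Python 3.11.15, pandas 2.3.3 and numpy 2.4.6, without a pseudocount, on genes with 1 entry that reach 1 FPKM; dark wild type values, scaled by 0.927 (det1-1) and 0.971 (pifq), had to lie within 1.5-fold. The calling code was tested on simulated data. With 1 value per group, no test was made. The 10 genes, the 6 lists and the named genes were chosen with earlier results of these data known. The naming rule took up to 3 genes per list and comparison at 5 FPKM or more, with the largest absolute fold past 2-fold. Other list genes, such as KCS19, CER17 and PDF1, are given outside that rule. Positions, promoters and symbols come from RefSeq TAIR10.1, matched by locus identifier for 10 of 10 genes. Alternatives covered the added FPKM, the minimum, the fold, centring, the dark reference and the tolerance.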

Additional observations from a re-analysis of the deposited data

How the results depend on the processing

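No paired analysis was possible because the tables hold 1 value per group, and for the same reason no library could be left out. Of the 21 folds of the wax genes, 20 kept their call with 1 FPKM added, 19 with 5 FPKM added, 20 when centred on the median of all genes, and 21 with the mean dark wild type over the tables; none of the called ones changed sign. The other settings leave each fold as it is and change only which genes are kept or called. With a call at 1.5-fold in place of 2-fold, 5 wax genes were called in light in place of 1 (3 higher and 2 lower). In det1-1, 1 was called in place of 2 with 1 FPKM added, with 5 FPKM added, and with folds centred on the median of all genes, since KCS1 lay at the threshold. Over the 6 lists, 6 genes were called in det1-1 in place of 11 and 8 in pifq in place of 15 with 5 FPKM added, and 26 and 25 at 1.5-fold. Adding 5 FPKM left 918 of all genes higher and 694 lower in light (from 1832 and 1494), 1333 and 543 in det1-1 (from 2562 and 1441), and 792 and 955 in pifq (from 1937 and 1975). A call at 1.5-fold gave 3210 and 2902, 3853 and 3143, and 3520 and 3456; with no minimum, 2198 genes were lower in det1-1. Depth is unknown, so the precision of WSD1, CER4 and MAH1, the lowest genes, cannot be stated.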

Other observations

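Suberin is the root counterpart of cutin and wax, a polyester with very long chains laid down in the endodermis. All 4 genes of its synthesis that were listed were at least 2-fold higher in light, beside 12.4% of all genes. CYP86B1, which hydroxylates very-long-chain acyl groups, was 31.6 FPKM in light against 2.90 FPKM in dark wild type. GPAT5, an acyltransferase, was 42.0 against 7.01 FPKM, and ASFT, which adds ferulate, was 181 against 33.3 FPKM. CYP86A1, a hydroxylase of root suberin, was 9.497 against 4.68 FPKM. In det1-1, 1 of 4 was higher (CYP86B1, 5.73 against 2.68 FPKM; list median 0.85), beside 17.3% of all genes. In pifq 0 were higher and 1 lower (GPAT5, 2.23 against 6.82 FPKM; list median -0.88), beside 12.9% and 13.2%. Adding 1 FPKM on both sides left none of the 4 called in det1-1, and CYP86A1 no longer called in light. These 4 are not all the genes known from suberin, and others stand in the wax and elongation lists. In light the log2 folds of those others differed in direction, at -2.97 for FAR1, 3.33 for FAR4, 0.80 for KCS2 and -0.16 for KCS20.

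WSD1 had the largest summed absolute log2 fold of the wax genes analysed in all tables. Over its 3 log2 folds, the nearest of 11062 genes was AT2G05400, at a Euclidean distance of 0.035 (log2 folds -0.57 in light, -4.35 in det1-1 and -2.22 in pifq). In det1-1 both genes were close to 0, at 0.267 FPKM for AT2G05400 and 0.321 FPKM for WSD1. Adding 1 FPKM on both sides took WSD1 to -2.50 there, so the distance rests on folds of imprecise size. AT4G07820 (distance 0.58) and AT3G19663 (distance 0.90) followed. The 3 folds share their dark libraries, so this describes a likeness only.

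The pattern of dark levels seen at CER1 and CER2 was counted over all protein-coding genes. Of 759 genes at 5 FPKM or more in dark wild type with an entry in the pifq table and none in the light table, 97 (12.8%) had an adjacent gene whose dark level in the light table lay within 1.2-fold of theirs and was not found under that adjacent gene in the pifq table within 1.5-fold. In the other direction this held for 61 of 617 genes (9.89%). How often an unrelated adjacent gene would meet the same limits was not counted, so neither share is a rate of mislabelling.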
